A study of Mus musculus with 106 samples.

Results

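The brain of mice kept at 10 °C was compared with that of mice kept at 22 °C, gene by gene. The comparison was set by the labels of the libraries: 3 brain libraries from 10 °C (replicates 1, 2 and 3) against 2 from 22 °C (replicates 1 and 3), 5 of the 106 libraries of the series. A further 22 °C brain library, replicate 2, was left out because it held liver RNA. All mice were wild-type C57BL/6J males aged 11 weeks, no group carried an allele or received an agent, and mice of both groups lived 2 to a cage without nesting material. The cold group, in a climatic chamber, was cooled in steps of 5 days each, to 18 °C and then to 14 °C. It was then held at 10 °C for 2 weeks, while the control group stayed at 22 °C. Each library pooled the RNA of 2 mice, so a library averages its pair and the spread between libraries is that between pools. The labels say only "brain" and do not say which parts were taken. They also carry, for every sample, a note of 34 °C housing, which contradicts the titles that set the groups here.

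Neurons answer strong synaptic input with a short burst of transcription. Calcium and cAMP signals act on factors already bound at the promoters, among them CREB and the serum response factor, and within minutes the immediate early genes are transcribed. Many of these genes encode transcription factors (the Fos, Jun, Egr and Nr4a families and Npas4), others encode the synaptic protein Arc or phosphatases that end MAP kinase signalling (Dusp1, Dusp6). Their transcripts decay quickly, so their level in a dissected brain follows recent activity. The study's methods give neither the hour nor the order of dissection. A difference in either, or in handling, cannot be told apart here from one of housing temperature. A slower response known from cooled rodent brain is that of the cold-inducible RNA-binding proteins, of which Rbm3 is the best studied.

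In brain, immediate early genes made up most of the genes that were higher at 10 °C with the firmest tests. Of 13976 genes tested, 72 were called higher and 40 lower at 10 °C, where a call needs both a fold above 1.5 and p no larger than 0.05 before adjustment in edgeR's quasi-likelihood test. That is 0.801% of the genes tested (0.515% higher, 0.286% lower). After Benjamini-Hochberg adjustment over all genes, 14 genes were higher and 3 were lower at an adjusted p under 0.05 (0.1% and 0.0215% of the genes tested, 0.122% in all), and 10 of the 14 were members of a list of 21 immediate early genes. The other higher genes were Trib1, Klf10, Lars2 and Gm20594, and the lower genes were Fabp7, Hist1h1d and Hist1h1e. The list was chosen with earlier results of these data known. At an unadjusted p under 0.05 and any fold, 1237 genes (8.85%) differed.

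**Figure D1:**
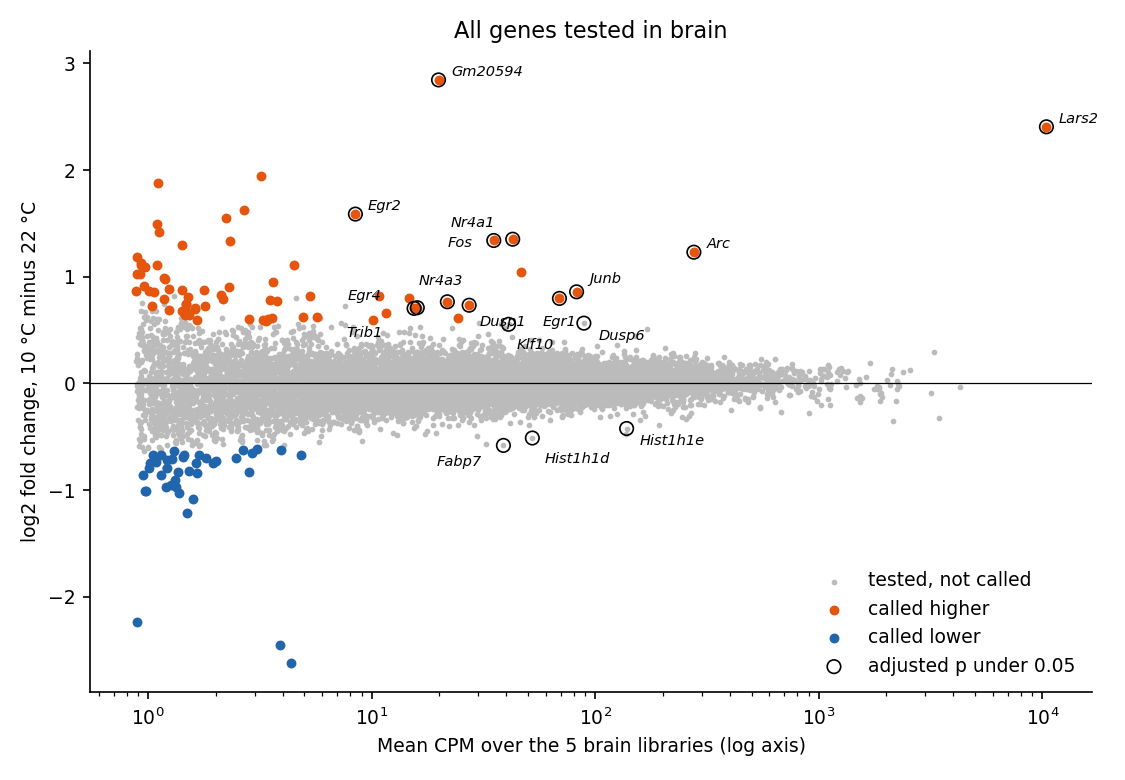
Every gene tested in brain, with its mean CPM over the 5 libraries (log axis) and its log2 fold change at 10 °C against 22 °C. Orange and blue points are the 72 genes called higher and the 40 called lower, and rings mark the 17 genes with an adjusted p under 0.05, which lie mostly above 10 CPM while most other called genes lie at the left edge.

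The called genes were unevenly spread over expression levels. Among the 952 genes with a mean of at most 2 CPM (counts per 1000000, TMM-scaled), 6.83% were called, 35 higher and 30 lower, and none of them had an adjusted p under 0.05. Between 10 and 100 CPM, 15 of 7849 genes were called (0.191%), all of them higher, and 13 genes there had an adjusted p under 0.05. Above 100 CPM only Lars2 and Arc were called. The libraries held 14038161 to 22049093 counts, the Pearson correlation of log2 CPM between any 2 of the 5 lay between 0.9918 and 0.9959, and the median log2 fold change of all genes was -0.0063. The first principal component held 33.9% of the variance and set 22 °C replicate 3 (-18.4) apart from 22 °C replicate 1 (-2.56) as well as from the 10 °C libraries (1.999 to 12.79).

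The material carried the marks of brain. The 10 neuron markers, among them Snap25 and Syt1 of the synaptic release machinery, summed to 8155 to 8874 CPM in the 5 libraries, and none of the 10 was called. Hepatocyte markers, a list of 12 secreted and metabolic liver genes, summed to 4.88 and 8.47 CPM at 22 °C and to 8.49, 11.5 and 18.7 CPM at 10 °C. In the library left out they reached 68040 CPM, which is 67.5% of their level in the liver libraries of the series, against at most 0.018% in the other brain libraries.

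Arc, which encodes a cytoskeletal protein that shapes synaptic strength and is carried on chromosome 15 (74669083 to 74672570, minus strand, GRCm38), had the smallest p of all genes. It measured 165 and 140 CPM in the 22 °C libraries and 332, 393 and 350 CPM in the 10 °C libraries. Every 10 °C library stood well above both controls. The mean went from 153 ± 17.5 CPM (SD, n = 2) to 358 ± 31.4 CPM (SD, n = 3), a 2.35-fold rise (log2 1.23 ± 0.09 SE, edgeR adjusted p = 2.34e-07). Leaving out any 1 of the 5 libraries kept its log2 fold change between 1.12 and 1.35, with an adjusted p of at most 8.75e-05.

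Immediate early transcription factors with the smallest p-values were Nr4a1, Junb and Fos, all higher at 10 °C. Nr4a1, an orphan nuclear receptor, was at 27.4 and 17.4 CPM at 22 °C and at 56.2, 64.4 and 48.2 CPM at 10 °C, a log2 fold change of 1.35 ± 0.14 (edgeR adjusted p = 6.41e-05). Fos, the founding member of the AP-1 factors, was at 23.3 and 13.9 CPM against 50.1, 50.9 and 37.5 CPM (log2 1.34 ± 0.16, edgeR adjusted p = 0.000188). The control libraries differed between themselves for both genes, replicate 3 being the lower, but neither reached the lowest 10 °C library. Junb, a partner of Fos in AP-1, was at 53.7 and 57.1 CPM against 103, 111 and 87.8 CPM (log2 0.86 ± 0.09, edgeR adjusted p = 6.53e-05), with controls that lay close together.

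Of the 4 zinc finger factors of the Egr family, 3 were called higher. Egr2 had the largest fold change of the list, from 4.95 and 2.94 CPM to 12.3, 13.7 and 8.41 CPM (log2 1.59 ± 0.21, edgeR adjusted p = 0.000931). Egr1, the most abundant of the family, was at 57.5 and 38.9 CPM against 86.8, 86.3 and 76.1 CPM (log2 0.80 ± 0.12, edgeR adjusted p = 0.00231). Egr4 was at 13.5 and 9.19 CPM against 17.7, 19.1 and 17.7 CPM (log2 0.70 ± 0.14, edgeR adjusted p = 0.0448), and so the 10 °C libraries of all 3 genes lay above both controls. Egr3 was not called, at 13.6 and 10.4 CPM against 17.3, 17.1 and 15.2 CPM, although its groups did not overlap either.

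The phosphatase genes Dusp1 and Dusp6 of the list rose, as did Trib1 and Klf10 outside it. Dusp1, a phosphatase that inactivates MAP kinases, was at 18.9 and 20.1 CPM against 34.3, 32.8 and 30.2 CPM (log2 0.73 ± 0.10, edgeR adjusted p = 0.000931). Dusp6, which acts on ERK, passed the adjusted threshold with a fold just under 1.5, at 72.2 and 66.0 CPM against 103, 105 and 98.5 CPM (log2 0.57 ± 0.08, edgeR adjusted p = 0.00122). Both genes had tight groups with a clear gap between them. Trib1, a pseudokinase that binds MAP kinase kinases and is not a member of the list, was at 11.6 and 11.6 CPM against 18.7, 20.6 and 17.5 CPM (log2 0.71 ± 0.12, edgeR adjusted p = 0.00754). Klf10, a zinc finger factor induced early by TGF-beta, was at 34.6 and 29.4 CPM against 42.8, 48.0 and 49.8 CPM (log2 0.55 ± 0.10, edgeR adjusted p = 0.0169).

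In all, 12 of the 21 immediate early genes were called higher and none lower, where 0.515% of all genes were called higher. Whatever the fold, 19 of the 21 were higher at p up to 0.05 before adjustment, where 5.03% of all genes were, and the median log2 fold change of the list was 0.70. In 15 of the 21 the 3 cold libraries lay above both controls, which held for 12.5% of all genes. Since the list was chosen with earlier results of these data known, these counts are not separate support. Npas4, a factor transcribed in neurons upon calcium entry, was called without passing adjustment (edgeR adjusted p = 0.101), with 10.4 and 10.1 CPM against 22.5, 18.2 and 12.3 CPM. For Btg2 and Ccn1 (edgeR adjusted p = 0.287 and 0.330), 10 °C replicate 3 was as low as the controls, at 19.7 and 3.63 CPM. Jun and Klf4 did not reach that p, with log2 fold changes of 0.18 ± 0.09 and -0.05 ± 0.22.

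**Figure D2:**
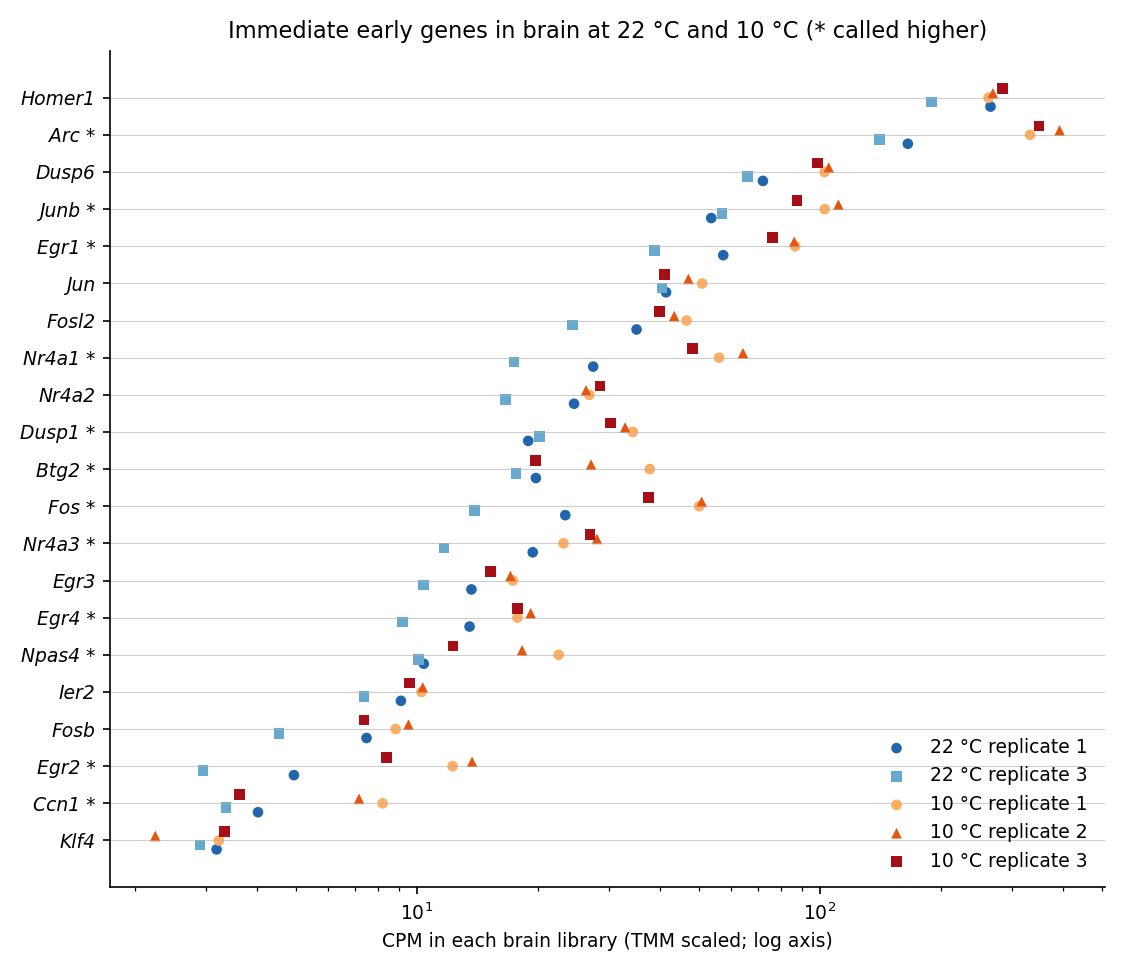
CPM of the 21 immediate early genes in each of the 5 brain libraries (log axis), ordered by their mean at 22 °C, with the 12 called genes marked by an asterisk. For Arc the controls sit at 140 and 165 CPM and the 10 °C libraries at 332 to 393 CPM, while for Jun and Klf4 the groups overlap.

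The count of called members depended on the control libraries, since there were only 2. Without 22 °C replicate 3, the lower of the controls for most of these genes, 7 of the 21 were called and 5 passed adjustment, whereas without 22 °C replicate 1 those counts were 17 and 13. Arc, Nr4a1, Junb, Fos and Dusp1 had an adjusted p under 0.05 whichever of the 5 libraries was left out.

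The proximal promoters of 4 of these genes are shown with the core TGACG of the cAMP response element TGACGTCA, to which CREB binds. They are the 4 list members of smallest p with a single promoter in the RefSeq table used (GRCm38.p6). Each run is the 250 bases before the start of the transcript, 5′ to 3′ on the strand of the gene, and capitals mark TGACG read on either strand. Nr4a1 lies at chr15:101266596-101266845 on the plus strand, Junb at chr8:84978749-84978998 on the minus strand, Fos at chr12:85473640-85473889 on the plus strand and Dusp1 at chr17:26508473-26508722 on the minus strand.
Nr4a1: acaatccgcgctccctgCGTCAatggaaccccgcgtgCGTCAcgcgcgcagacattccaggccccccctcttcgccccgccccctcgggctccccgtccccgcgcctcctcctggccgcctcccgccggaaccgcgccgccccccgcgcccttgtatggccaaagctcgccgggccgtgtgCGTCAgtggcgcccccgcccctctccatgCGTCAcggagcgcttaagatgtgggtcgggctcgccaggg
Junb: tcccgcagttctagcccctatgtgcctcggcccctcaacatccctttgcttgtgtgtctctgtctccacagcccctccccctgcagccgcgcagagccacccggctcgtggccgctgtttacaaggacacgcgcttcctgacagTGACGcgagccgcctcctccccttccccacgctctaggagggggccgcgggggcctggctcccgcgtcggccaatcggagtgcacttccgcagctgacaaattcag
Fos: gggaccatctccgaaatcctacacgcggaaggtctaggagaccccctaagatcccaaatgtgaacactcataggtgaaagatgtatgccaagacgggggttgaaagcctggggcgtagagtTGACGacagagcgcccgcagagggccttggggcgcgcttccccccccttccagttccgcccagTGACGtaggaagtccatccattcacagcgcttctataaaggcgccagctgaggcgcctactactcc
Dusp1: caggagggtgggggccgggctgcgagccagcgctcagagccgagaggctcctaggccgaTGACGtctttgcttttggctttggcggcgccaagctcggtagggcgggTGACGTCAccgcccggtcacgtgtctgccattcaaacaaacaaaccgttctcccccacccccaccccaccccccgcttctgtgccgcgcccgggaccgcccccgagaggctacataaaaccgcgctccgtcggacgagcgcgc

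The Nr4a1 window held 4 copies of TGACG, the Dusp1 window 3, the Fos window 2 and the Junb window 1. A full TGACGTCA, in which the core is counted once on each strand, occurred in the Dusp1 window only. In the whole list, 17 of the 21 genes had an entry (22 promoters, several for Egr2 and Homer1), and 14 of the 17 held TGACG in at least 1 promoter, where 17.8% of the 32851 promoters in the table did. TGACGTCA occurred in 2 of the 17 (Dusp1 and Btg2) and in 1.55% of all promoters. The CArG box, the site of the serum response factor, occurred in 1 of the 17 (Egr2) and in 1.47% of all promoters. Of the 10 called members with an entry, all 10 held TGACG. Arc, Egr1, Egr3 and Ier2 had no entry, so their promoters were not searched. The list is counted per gene, by any of its promoters, while the shares of all are per single promoter, so the 2 are not like for like. These matches describe letters in the window and no binding was measured. Whether CREB acted on these genes was not tested.

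The 22 °C library left out gave 1 more control once its brain RNA was set apart. Its neuron markers summed to 3762 CPM, 44.0% of the mean of the other 5, so each gene was given per 1000 CPM of neuron markers, for the 8 immediate early genes whose CPM in liver was more than 10 times below that in the other 22 °C brain libraries. On that scale Arc was at 19.03, 13.8 and 17.2 in the 22 °C replicates 1, 2 and 3 and at 39.3, 45.7 and 39.4 in the 10 °C libraries. Nr4a3 was at 2.23, 1.64 and 1.43 against 2.73, 3.25 and 3.03, and Egr4 at 1.56, 0.441 and 1.13 against 2.10, 2.23 and 1.998. In 6 of the 8 genes all 3 cold libraries lay above all 3 controls, which held for 3.33% of the 3393 genes that met the same limit. The exceptions were Fosb and Npas4, in which 10 °C replicate 3 (0.832 and 1.39) fell below a control. Replicate 2 was the highest control for Fosb, Egr2 and Npas4. It alone is new here, since the cold libraries and the other controls are those compared above. The share of 3.33% was taken over genes whether or not they already lay above replicates 1 and 3, so the count is not separate support. This scale was chosen after the data were seen. With all 6 libraries in the edgeR fit as they stood, no gene passed adjustment (560 had an unadjusted p under 0.05).

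The hypothalamus, the brain region that holds the thermoregulatory centre, was sampled in 3 libraries at each of the same temperatures, and the labels do not say whether they came from the same mice. Its own comparison of 10 °C with 22 °C gave no gene with an adjusted p under 0.05 in edgeR's quasi-likelihood test (897, or 6.18%, with an unadjusted p under 0.05), but 25 in edgeR's exact test and 22 in DESeq2. None of the 21 immediate early genes was called there, where 0.578% of all genes were, 16 had a log2 fold change above 0, and their median was 0.13. At an unadjusted p under 0.05, 5 of them were higher and none lower, against 3.50% of all genes higher. The largest was Fos, with a log2 fold change of 0.52 ± 0.16 in hypothalamus against 1.34 ± 0.16 in brain.

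The difference of the effects was tested as an interaction over the 11 libraries. Arc was the only gene of 14421 (0.00693%) whose 10 °C effect differed between brain and hypothalamus at an adjusted p under 0.05. Its log2 fold change was 1.23 in brain and 0.19 in hypothalamus, where it went from 25.02 to 28.7 CPM, and the difference was 1.05 ± 0.12 (edgeR adjusted p = 0.00117). At an unadjusted p under 0.05, 682 genes differed (4.73%), 11 of the 21 immediate early genes among them, all with the larger effect in brain. After Arc, the smallest p-values within the list were those of Dusp1 (0.86), Dusp6 (0.54) and Nr4a1 (1.09), the values being differences of log2 fold changes, brain minus hypothalamus.

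The series also holds brain without hypothalamus of mice kept for 4 weeks at 34 °C, with controls at 22 °C and 3 libraries in each group, from other mice aged 12 weeks and another kit and sequencing site. No gene passed adjustment there in edgeR's quasi-likelihood test (369, or 2.64%, with an unadjusted p under 0.05) or in its exact test, and 4 did in DESeq2. Among the 20 immediate early genes tested, 17 had a lower mean at 34 °C and 3 a higher one, with a median log2 fold change of -0.31. Those with an unadjusted p under 0.05 were 7, all lower, where 1.42% of all genes were. Arc, Fos, Nr4a1 and Egr2 were called lower (0.15% of all genes were), each with an adjusted p of 0.9997 in edgeR's quasi-likelihood test. For each of these genes the 34 °C and 22 °C libraries overlapped. Arc went from 222 CPM at 22 °C to 130 CPM at 34 °C (log2 -0.77 ± 0.22) and Egr2 from 11.0 to 3.78 CPM (log2 -1.52 ± 0.45). The tables were normalised apart, so no test was made between the cold and the warm experiment.

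**Figure D3:**
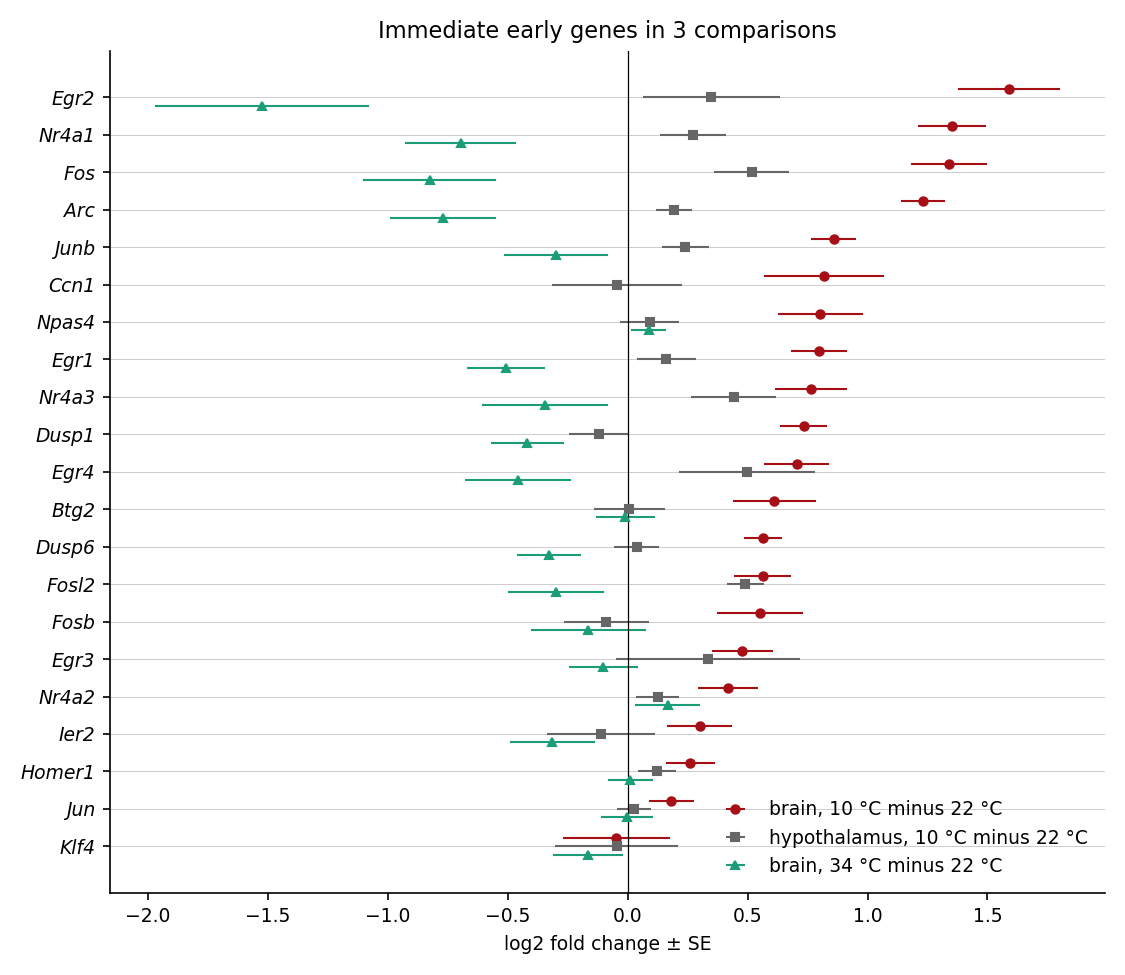
Log2 fold change ± SE of the 21 immediate early genes in brain at 10 °C against 22 °C (red), hypothalamus at 10 °C against 22 °C (grey) and brain at 34 °C against 22 °C (green). For Arc the values are 1.23, 0.19 and -0.77.

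Outside the immediate early list, the largest rises rested on few libraries. Lars2, the mitochondrial leucyl-tRNA synthetase, was at 2893 and 2932 CPM at 22 °C and at 5570, 7300 and 33445 CPM at 10 °C (log2 2.41 ± 0.47, edgeR adjusted p = 0.0448). Gm20594, a predicted gene on chromosome 6, was at 3.82 and 4.39 CPM against 12.1, 18.4 and 60.8 CPM (log2 2.85 ± 0.50, edgeR adjusted p = 0.0169). Both were far higher in 10 °C replicate 3 than in any other library, and without that library their log2 fold changes were 1.15 and 1.88. Without either control library neither passed adjustment. Neither differed in hypothalamus by a call, with log2 fold changes of 0.04 and -0.68. In the 22 °C brain of the warm experiment, from another kit and site, Lars2 had a mean of only 191 CPM. The cause of that gap was not tested, so the counts of Lars2 are uncertain.

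Other genes stood high in the same library. Rpl5 and Rpl10, ribosomal proteins, were called with 23.7 and 22.2 CPM in 10 °C replicate 3 against at most 8.96 and 10.1 CPM elsewhere, and both have many pseudogene copies, so their counts are uncertain. Gdf7, a growth factor, was at 9.44 CPM there and at 1.13 to 2.75 CPM in the others. Cdr1 was at 25.4 and 30.98 CPM against 39.7, 47.5 and 89.1 CPM (log2 1.04 ± 0.22, edgeR adjusted p = 0.0812). An antisense RNA covers Cdr1 and the kit does not mark strand, so reads of the pair cannot be told apart. The leukocyte markers summed to 32.98 CPM in 10 °C replicate 3 and to 7.17 to 10.9 CPM in the other 4 libraries. Only S100a9 and S100a8 of the 6 markers were tested, and neither was called. They gave 18.1 and 14.2 of the 32.98 CPM in 10 °C replicate 3. The part of this library's differences in the calls was tested by leaving it out, upon which 132 genes were called, 78 of them among the 112.

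Pituitary hormone genes were lower and hypothalamic peptide genes higher at 10 °C by the call, all without passing adjustment. The pituitary genes Gh, Prl and Pomc were called lower (3 of 4 tested, where 0.286% of all genes were), and for all 3 the highest value was that of 22 °C replicate 3. Gh was at 0.707 and 16.6 CPM at 22 °C and at 0, 3.97 and 0.484 CPM at 10 °C, and Pomc was at 1.34 and 13.7 CPM against 1.18, 1.58 and 1.63 CPM. Without that library their log2 fold changes turned to 1.06 for Gh and 0.11 for Pomc. Of 11 hypothalamic peptide and enzyme genes, 6 were tested and Avp, Oxt, Hcrt and Pmch were called higher, where 0.515% of all genes were. All lay under 8 CPM. Between 2 and 10 CPM, the mean level of Avp, Oxt and Hcrt, 1.13% of genes were called in either direction. At up to 2 CPM, that of Pmch, 6.83% were. Avp, the antidiuretic hormone vasopressin, was at 2.19 and 3.10 CPM against 7.85, 4.43 and 4.96 CPM (edgeR adjusted p = 0.101), and Pmch, the precursor of melanin-concentrating hormone, at 1.06 and 1.497 CPM against 2.31, 2.14 and 1.997 CPM (edgeR adjusted p = 0.441). For both genes every cold library lay above both controls. Hcrt, the arousal peptide orexin, was at 1.56 and 0.929 CPM against 4.63, 1.12 and 3.33 CPM, so 10 °C replicate 2 lay among the controls. Oxt, oxytocin, was at 2.12 and 2.74 CPM against 6.53, 1.88 and 4.18 CPM, with that replicate below both controls. In hypothalamus Avp was called higher as well (log2 0.67), where 0.578% of all genes were called. There Oxt, Hcrt and Pmch had log2 fold changes of -0.10, -0.31 and -0.14 and were not called. The hypothalamus means of Avp, Oxt, Hcrt and Pmch at 22 °C were 152, 134, 173 and 130 CPM. How much hypothalamus each brain library held was not tested.

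Genes of other tissues were also called higher, at low counts, and these calls are read against the 6.83% of genes called in either direction at up to 2 CPM and the 1.13% between 2 and 10 CPM. Among 12 hepatocyte markers, 3 were tested and Alb and Cps1 were called higher, Alb with 1.56 and 2.84 CPM against 2.27, 4.02 and 7.32 CPM. Serpina3k and Apob, further genes of liver, were called at 0.141 to 4.297 CPM. Of 6 skeletal muscle markers, 4 were tested, and Ckm and Myh4 were called through 10 °C replicates 2 and 3, in which Myh4 was at 5.09 and 5.27 CPM against 0.635 to 1.70 CPM in the other libraries. The 6 red cell genes summed to 247 and 206 CPM at 22 °C and to 261, 332 and 373 CPM at 10 °C, with 5 of the 6 at p up to 0.05 before adjustment and none called. At 22 °C, Alb was at 50020 CPM in the liver libraries and Myh4 at 2620 CPM in those of brown fat. Where the traces of such genes in brain came from was not tested. For bulk tissue, more cells of a kind and more RNA per cell cannot be told apart either.

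**Figure D4:**
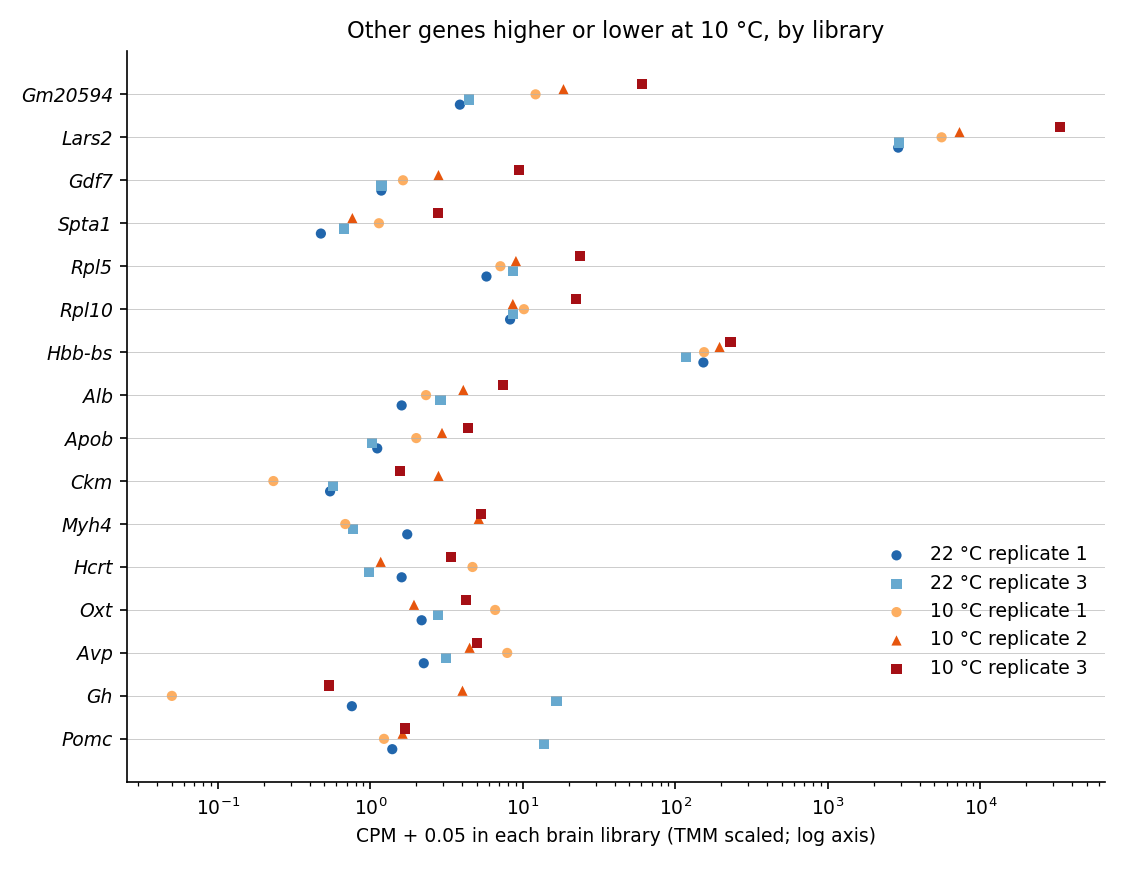
CPM plus 0.05 (log axis) in each of the 5 brain libraries for 16 genes outside the immediate early list. Lars2, Gm20594, Rpl5 and Rpl10 stand highest in 10 °C replicate 3, and Gh and Pomc in 22 °C replicate 3.

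Among genes that were lower at 10 °C, the firmest was Fabp7, the brain fatty acid binding protein of radial glia and astrocytes. It was at 46.0 and 50.7 CPM against 29.5, 33.2 and 34.6 CPM and fell by 0.58 ± 0.09 on the log2 scale (edgeR adjusted p = 0.00591). The linker histone genes Hist1h1d and Hist1h1e were at 66.2 and 61.1 against 41.975, 44.0 and 48.1 CPM, and at 149 and 176 against 117, 129 and 120 CPM. They fell by 0.51 ± 0.09 and 0.42 ± 0.08 on the log2 scale (edgeR adjusted p = 0.00931 and 0.0448). All 3 genes had groups that did not overlap, all had folds under 1.5, and without 22 °C replicate 3 none of the 3 passed adjustment. Hist1h1d also lost it without 22 °C replicate 1, and Hist1h1e without 10 °C replicate 3. The histone genes belong to a family of near-identical copies, among which counting can split reads. The 10 called genes with the largest falls and separate groups, among them Aplnr, the apelin receptor (2.47 and 2.12 against 0.908, 1.32 and 0.666 CPM), were all at 0.499 to 3.11 CPM in these libraries and none passed adjustment.

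Markers of myelin lay below 0 as a group, without a call. All 11 markers of myelinating oligodendrocytes had a log2 fold change below 0, where 47.9% of all genes were above 0, and the median was -0.19. At an unadjusted p of at most 0.05, 8 of the 11 were lower, where 3.82% of all genes were, but none was called or passed adjustment. Mbp, the major myelin basic protein, was at 3652 and 4162 CPM against 3034, 3140 and 3212 CPM (log2 -0.32 ± 0.09, edgeR adjusted p = 0.235). Mag, an adhesion protein of the inner myelin layer, was at 250 and 330 CPM against 238, 247 and 205 CPM, with controls that differed more from each other than replicate 1 did from the cold libraries. The count of 8 went to between 3 and 9 when single libraries were left out, and it was 3 without 22 °C replicate 3, 4 without 22 °C replicate 1 and 4 without 10 °C replicate 1 or 2. The 7 markers of oligodendrocyte precursors had a median of 0.07.

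The other glial lists showed no called gene. Astrocyte markers had a median log2 fold change of -0.08, with 3 of 10 lower at p up to 0.05 before adjustment, where 3.82% of all genes were, and Gfap, the intermediate filament of astrocytes, was at 298 and 257 CPM against 240, 212 and 216 CPM (edgeR adjusted p = 0.228). Microglia markers had a median of -0.12, with 4 of 12 lower at that p against the same share, among them Trem2 (11.8 and 13.4 against 9.85, 9.77 and 10.8 CPM). The neuron markers had a median of -0.0021. Glutamate receptors (24 genes, median 0.02) and genes of GABA receptors, synthesis and transport (19 genes, median 0.06) held no call, with 2 and 1 genes higher and none lower at an unadjusted p of at most 0.05, where 5.03% of all genes were higher.

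**Figure D5:**
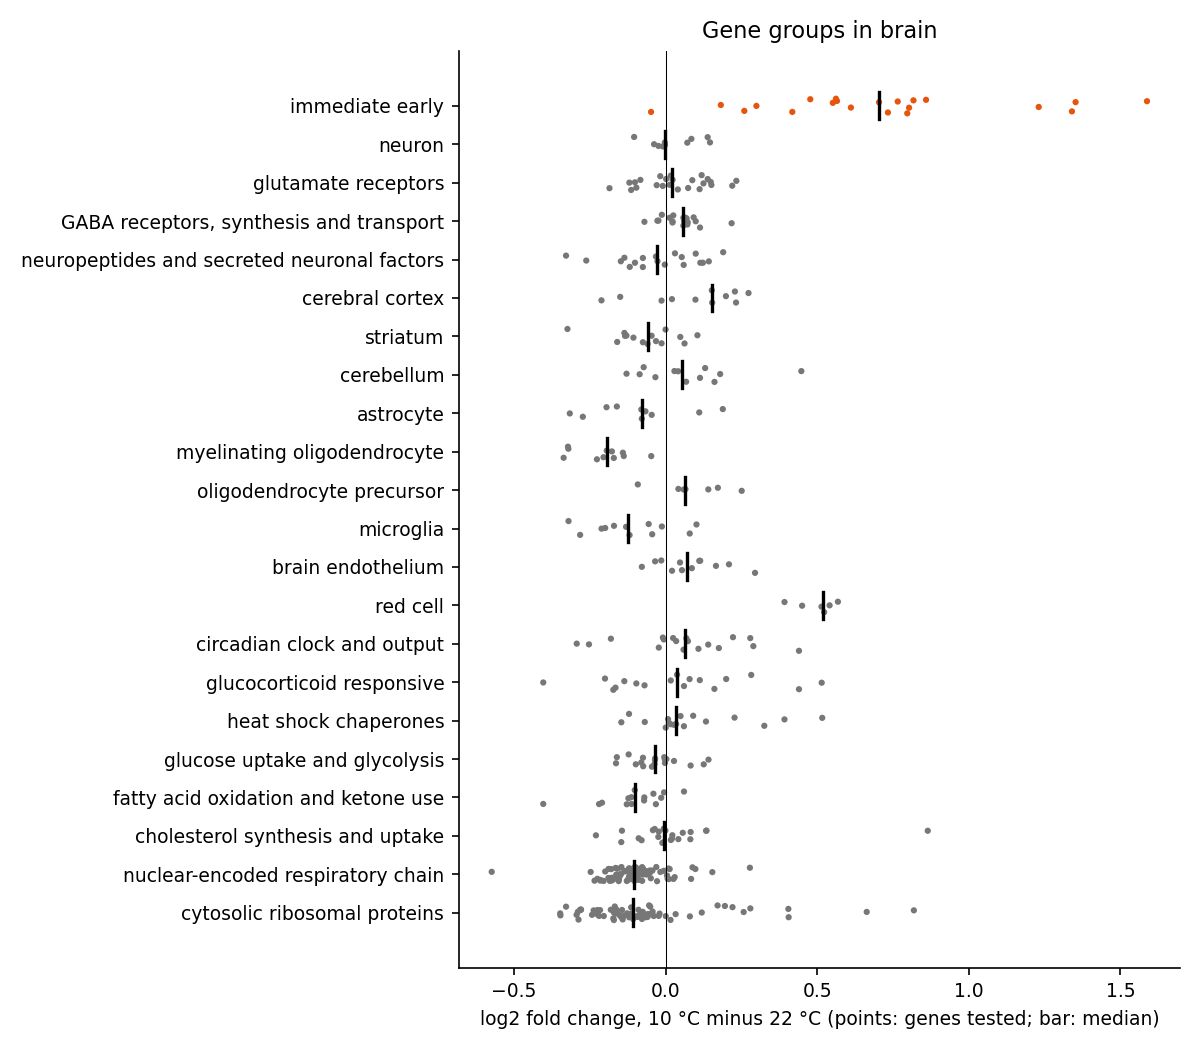
Log2 fold change at 10 °C against 22 °C of the tested genes in 22 gene groups, with 1 point for each gene and a bar at the median. The immediate early genes, in orange, have a median of 0.70, and the medians of the neuron and myelinating oligodendrocyte markers are -0.0021 and -0.19.

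Among the lists of brain regions other than the hypothalamic peptides above, 2 genes were called. Of all genes 0.801% were called, and of those between 2 and 10 CPM, the level of both, 1.13%. In the cerebral cortex list (11 genes, median 0.15) 4 genes were higher at p up to 0.05 before adjustment against 5.03% of all genes, none was called, and Rorb of layer 4 was at 50.5 and 46.2 CPM against 58.1, 52.8 and 64.2 CPM. Striatum, thalamus and cerebellum lists had medians of -0.06, -0.07 and 0.05 with no call. The 2 called members were Eomes of the olfactory bulb (5.37 and 3.30 against 5.90, 7.08 and 6.72 CPM) and Hoxa5 of the hindbrain, which was lower (3.53 and 4.18 against 2.27, 2.95 and 2.42 CPM), neither after adjustment.

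Genes known for their response to temperature did not pass the test in brain. Cirbp and Rbm3, cold-inducible RNA-binding proteins, were at 56.5 and 68.6 against 54.0, 57.1 and 55.6 CPM, and at 10.9 and 14.4 against 12.7, 14.1 and 13.3 CPM. Their log2 fold changes were -0.17 ± 0.09 and 0.06 ± 0.13. Among 9 temperature-sensitive TRP channels, 6 were tested and none was called. Ucp1, the uncoupling protein of brown fat, had at most 0.0605 CPM in any of the 5 libraries and was not tested, and nor was Elovl3, a fatty acid elongase, at 0 to 0.305 CPM. The other genes that the study followed across tissues (Nnat, Nr1d1, Hspa1b, Thrsp and Atp2a1) were tested, and none was called. Of them Nr1d1, a repressor of the clock, was at 30.9 and 42.1 CPM against 30.7, 31.8 and 30.1 CPM.

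In the gene lists that the study drew up for thermogenesis and fatty acid metabolism, calls were rare, as they were among all genes (0.515% higher and 0.286% lower). Of 131 thermogenic genes tested, 1 was called higher, the histone demethylase Kdm6b (log2 0.60 ± 0.15, edgeR adjusted p = 0.172), and with scaling by library size alone there was none. Of 220 fatty acid genes tested, Nr4a3, an immediate early gene counted above, was called higher and Lpin3, a phosphatidate phosphatase, lower (log2 -0.67 ± 0.30, edgeR adjusted p = 0.544). At an unadjusted p of at most 0.05, 20 of the 220 were lower and 3 higher, where 3.82% and 5.03% of all genes were, and the median was -0.04.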

How the data were processed

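Raw counts per gene were used as the authors deposited them, in 1 table for the cold experiment and a separate one for the warm experiment. Per the study's methods, brain RNA of 2 mice per library went through an NEBNext Ultra kit, which does not mark strand, and reads were aligned with STAR to mm10, checked with Picard and counted with HTSeq. The submitters' processing notes give STAR 2.5.3a, Picard 1.141 and HTSeq 0.6p1. The study called genes with edgeR's exact test, the same fold and p limits and the same filter on log CPM.

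Of 21647 Ensembl identifiers, 21583 were matched to a symbol and a GENCODE M21 position (GRCm38). The filter was an average log2 CPM above 0. Counts were scaled by TMM and tested, two-sided, by the quasi-likelihood F-test of edgeR 4.0.16 in R 4.3.3, with the 3 libraries of 10 °C against the 2 of 22 °C. SE is the log2 fold change divided by the root of F. DESeq2 1.42.0, edgeR's exact test, other scalings and filters, and the fits without single libraries were alternatives, and the code was tested on simulated data. The depth was 14038161 to 22049093 counts a library in brain, 13525354 to 21218147 in hypothalamus and 48996910 to 62880248 in the warm experiment. With 2 and 3 libraries, p-values measure the spread between these pools.

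Genes were named by rule: the 10 called genes with the largest rise and the 10 with the largest fall whose groups did not overlap, the 5 with the smallest p each way, every called member of a list and up to 4 members by highest mean CPM, and all members of 2 lists (cold-inducible RNA-binding proteins and the genes the study followed across tissues). Trib1, Klf10 and Dusp6 were added for their adjusted p, and Cdr1, Mag, Gfap, Fosb, Trem2, Rorb, Kdm6b, Lpin3, Egr3, Jun, Klf4, Per1, Dbp, Fkbp5, Dnajb1 and Adrb1 after their values were seen. The comparison and the lists were chosen with earlier results of these data known. The tables held no mitochondrially encoded genes. Bone marrow and spinal cord files were not used here.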

Additional observations from a re-analysis of the deposited data

Results flagged for a closer look

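Arc stood out because its 10 °C effect differed between tissues by a test of that difference. Its log2 fold change in brain exceeded that in hypothalamus by 1.05 ± 0.12 (edgeR interaction, adjusted p = 0.00117), and the difference lay between 0.94 and 1.17 when any 1 of the 11 libraries was left out, with an adjusted p of at most 0.0174. With 2 and 3 libraries in a group, no group of this comparison was large enough for a test of single outlying samples.

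The 22 °C brain library left out, replicate 2, stood out because its hepatocyte markers summed to 68040 CPM, 37860 of them from Alb, where the other brain libraries had at most 18.2 CPM in all, both scaled by total counts without TMM.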

How the results depend on the processing

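The 112 called genes (72 higher, 40 lower) became 229 (137 and 92) with no filter on low counts, 54 (37 and 17) in DESeq2, 393 (39 and 354) with all 6 libraries, and 54 (37 and 17) with all 6 libraries after removal of the 5371 genes higher in liver. Scaling by library size alone moved the median of all genes to -0.032 and gave 67 higher and 51 lower. The adjusted limit in place of the call gave 17. Without single libraries the calls ranged from 117 to 185 (65 to 110 higher, 45 to 75 lower), the most without 22 °C replicate 1. The 17 genes with an adjusted p under 0.05 became 31 with no filter, 51 in the exact test, 11 with the spread shared with hypothalamus, 0 with all 6 libraries with or without the liver genes, and 5 to 54 without single libraries: 5 without 22 °C replicate 3, 54 without 10 °C replicate 1, 47 without 10 °C replicate 2 and 36 without 22 °C replicate 1. Replicate numbers are shared by 2 pairs only and the labels do not say what they mark. The correlations of their deviations were 0.137 and -0.0308, and the fit with the replicate block gave 122 calls and 54 adjusted ones, with all 17 genes among them, and 4 myelin genes in place of 8. The interaction gave 1 gene with the block, Arc, and 1 to 3 genes without single libraries.

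Called immediate early genes numbered 7 to 17 without single libraries, and adjusted ones 5 to 13 (0 with all 6 libraries, with or without the liver genes, against 10). Myelin genes lower at an unadjusted p of at most 0.05 numbered 3 to 9 without single libraries and 0 with all 6 libraries, with or without the liver genes. For hypothalamus, DESeq2 called 37 genes against 84, and adjusted genes were 25 in the exact test and 22 in DESeq2. For the warm brain, DESeq2 gave 4 adjusted genes. With all 6 libraries the log2 fold change reversed for Alb (-11.9), Serpina3k (-11.4), Apob (-11.1), Cps1 (-10.3), Idi1 (-0.63), Ccn1 (-0.0545) and Trib1 (-0.0383), all of them higher in the 22 °C replicate 2 than in the other controls, and without 22 °C replicate 3 for Gh (1.06) and Pomc (0.11), whose values without single libraries ran from -5.39 and -3.24 up to these. The cause was not tested. Depth limits the values below 2 CPM, where 6.83% of the genes were called and none passed adjustment.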

Other observations

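Among clock, hormone and stress genes, 1 gene was called, Atf3 of the 16 tested genes of endoplasmic reticulum and integrated stress. It was at 0.848 and 0.775 CPM at 22 °C and at 1.04, 1.68 and 1.51 CPM at 10 °C (edgeR adjusted p = 0.504), a level at which 6.83% of genes were called. In the circadian list of 18 genes none was called, 5 were higher and 2 lower at an unadjusted p of at most 0.05, where 5.03% and 3.82% of all genes were. Per1, a repressor of the clock that is also transcribed upon neuronal activity and glucocorticoid signals, was at 33.01 and 37.0 CPM at 22 °C and at 43.9, 51.1 and 48.1 CPM at 10 °C (log2 0.44 ± 0.09, edgeR adjusted p = 0.0855). Dbp, a clock output factor, was at 30.1 and 51.2 CPM against 31.7, 35.6 and 33.4 CPM, so its cold libraries lay between the controls. Of 17 glucocorticoid responsive genes, 2 were higher and 1 lower at that p and none was called, and Fkbp5, a co-chaperone of the glucocorticoid receptor, was at 29.1 and 24.7 CPM against 24.1, 22.7 and 24.9 CPM. None of 11 thyroid hormone genes reached that p. Of 17 heat shock chaperones, Dnajb1 alone did, at 58.4 and 49.5 CPM against 68.8, 71.3 and 71.7 CPM (edgeR adjusted p = 0.101).

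Genes of energy supply and translation lay mostly below 0. Of 93 nuclear-encoded genes of the respiratory chain tested, 81 had a log2 fold change below 0 (median -0.10), where 52.1% of all genes did, and 11 were lower at an unadjusted p of at most 0.05, where 3.82% of all genes were. None was called. Of 71 cytosolic ribosomal protein genes, 57 were below 0 (median -0.11), 11 were lower at that p against the same shares, and the 2 called, Rpl5 and Rpl10, were higher. With scaling by library size alone these medians were -0.13 and -0.13, where that of all genes was -0.032. The ribosomal list summed to 3958 and 4512 CPM at 22 °C and to 3754, 3944 and 4197 CPM at 10 °C, so 22 °C replicate 1 lay among the cold libraries. In 19 of its 71 genes all cold libraries lay below both controls, where 12.4% of all genes did. At 22 °C, Rpl5 and Rpl10 had means of 7.17 and 8.41 CPM here. In the 22 °C brain of the warm experiment, from another kit and site, they had 199 and 208 CPM. The cause of that gap was not tested, so the counts of the ribosomal list are uncertain. The adrenergic receptor gene Adrb1 was at 14.6 and 14.1 CPM against 17.4, 20.7 and 17.4 CPM (log2 0.37 ± 0.11, edgeR adjusted p = 0.330), and 4 of 16 monoamine receptor genes were higher at that p and 1 was lower, where 5.03% and 3.82% of all genes were.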
